A study of Mus musculus with 54 samples.

Results

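Apoa1, Apoa2, Apoa4, Apob, Apoc1, Apoc2, Apoe and Apom encode apolipoproteins, the proteins that coat lipid particles, and Mttp encodes the microsomal transfer protein that loads lipid onto apolipoprotein B. These 9 genes were chosen by name and found by Ensembl ID among 47729 genes counted by RNA-seq in cXEN cells, an established line of mouse extraembryonic endoderm stem cells. Of the 9, 7 had enough reads to be tested, and Apoc1 and Apoc2 did not.

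The series compared cells that lose a transcription factor with cells that keep it, and cells given BMP4 with their own control. It held 40 RNA-seq libraries in 20 groups of 2, with 14 chromatin samples that were not analysed here. The Gata6-FKBP and Sox17-FKBP lines carry a tag on the named factor through which the small molecule dTAGV1 has the protein degraded. Each line had vehicle (DMSO) cells at 0 h and cells at 6, 24, 48, 72 and 96 h of 500 nM dTAGV1, in medium with 15% serum. Both lines were also sampled with a FoxA2-/- genotype, at 0 h with vehicle and at 48 h of dTAGV1, and those cells carry the tag as well. Untagged parental cXEN cells with no stated treatment formed a further group. Vehicle cells were sampled at 0 h only, and no untagged cells are labelled as given dTAGV1. Loss of the factor, dTAGV1 itself and time in culture therefore cannot be told apart, and loss below is the name of these comparisons. The BMP4 groups were kept for 24 or 72 h in serum-free N2B27 medium with 25 ng/ml BMP4, and their 0 h control in N2B27 with 1% serum, so BMP4, time and removal of the last serum cannot be told apart. The titles of the BMP4 libraries name XEN cells and their genotype label names the Gata6-FKBP line. No label says how many clones each line represents or that replicates are separate cultures, so the p-values measure the spread between these samples, which may be technical.

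Lipoproteins are assembled in the endoplasmic reticulum, where the microsomal transfer protein adds lipid to apolipoprotein B as it is made. Apolipoproteins A-I and A-II are the main proteins of high-density lipoprotein, apolipoprotein E is a ligand of the LDL receptor family, and apolipoprotein M carries sphingosine-1-phosphate. In the mouse embryo the visceral endoderm of the yolk sac makes lipoproteins before the liver does, and mouse embryos without Apob or Mttp die with defects of yolk sac lipid export.

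Apoa1 (chr9:46228630-46230469) and Apoa4 (chr9:46240844-46243458) lay in a cluster on mouse chromosome 9 with Apoc3 between them, and Apoe, Apoc1 and Apoc2 in another on chromosome 7 (GRCm38.p6, the mm10 assembly, from RefSeq). The bases before the start of 4 genes are printed 5′ to 3′ in the direction of the gene, because between them they show both motifs and they belong to genes that responded to BMP4, loss of Sox17 or FoxA2 mutation. They are Apoa1 (chr9:46228380-46228629, plus strand), Apoa4 (chr9:46240594-46240843, plus strand), Apob (chr12:7977427-7977628, plus strand, ended where another RefSeq transcript begins) and Apom (chr17:35131802-35132051, minus strand). Capitals mark matches, on either strand, to TGTTTNC, a forkhead (FOX) type core, or to CAAAGNNCA, a half-site of the HNF4 type.
Apoa1: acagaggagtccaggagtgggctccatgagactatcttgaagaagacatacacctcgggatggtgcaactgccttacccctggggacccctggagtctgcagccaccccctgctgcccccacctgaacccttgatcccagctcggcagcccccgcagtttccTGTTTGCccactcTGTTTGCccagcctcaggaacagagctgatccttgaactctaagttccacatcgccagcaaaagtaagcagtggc
Apoa4: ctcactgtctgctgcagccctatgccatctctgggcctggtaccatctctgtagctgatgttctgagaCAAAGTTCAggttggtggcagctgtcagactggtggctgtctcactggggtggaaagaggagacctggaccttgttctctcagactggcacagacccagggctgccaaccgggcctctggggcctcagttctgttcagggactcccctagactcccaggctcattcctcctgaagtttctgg
Apob: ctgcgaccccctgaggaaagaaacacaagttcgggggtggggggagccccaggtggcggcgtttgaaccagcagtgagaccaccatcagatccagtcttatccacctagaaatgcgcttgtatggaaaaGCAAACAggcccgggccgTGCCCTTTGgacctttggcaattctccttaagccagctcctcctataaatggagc
Apom: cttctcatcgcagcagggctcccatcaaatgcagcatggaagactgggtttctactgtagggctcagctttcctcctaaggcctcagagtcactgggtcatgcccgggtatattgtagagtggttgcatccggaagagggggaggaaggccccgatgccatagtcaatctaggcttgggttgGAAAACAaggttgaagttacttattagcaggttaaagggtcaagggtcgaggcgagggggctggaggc
RefSeq promoter entries were found for 8 of the 9 genes, not for Apoc1. The 250 bases before each start were searched on both strands for these motifs and for AGATAA, a core bound by Gata factors, and AACAAT, a core bound by Sox factors. No matches to different motifs overlapped each other in these windows. TGTTTNC was present before Apoa1 at 2 places, Apoa2, Apob and Apom, and in 17.8% of all 32851 promoters of that length. CAAAGNNCA was present before Apoa4 and Apob and in 5.49% of all promoters. AGATAA was in 9.99% and AACAAT in 9.42% of all promoters and in none of these genes' windows. A match of letters describes the sequence and not binding.

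Libraries held 16221873 to 42457384 reads in genes. Reads outside annotated genes came to 3.99 to 10.4 per 100 gene reads and were most frequent in BMP4 72 h, where mitochondrially encoded RNA was also highest (1.65 and 1.69% of gene reads, against 0.78 and 0.79% in the control). The spread of counts between both libraries of a group, over that of counting alone, ran from 1.45 to 53.3, widest in BMP4 24 h. Of the marker lists, all 9 primitive endoderm and XEN genes were at 1 CPM, a count scaled to library size, or more in every library. The summed level of 8 fibroblast markers was 0 to 1722 CPM, highest in parental cXEN. Foxa2 RNA was 112 ± 0.0014 CPM in the Gata6-FKBP FoxA2-/- cells against 124 ± 9.66 CPM in the Gata6-FKBP cells at 0 h, and 88.0 ± 3.85 against 120 ± 1.63 CPM in the Sox17-FKBP pair. Whole-gene counts do not check such a mutation, and RNA does not check a tag that acts on the protein. Throughout, levels in CPM carry the standard deviation (SD, n = 2) and log2 changes their standard error.

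Each of the 7 tested genes except Mttp was highest in the BMP4 groups, Mttp in the Sox17-FKBP FoxA2-/- cells. Apoa1 ranged from 0.155 ± 0.0439 CPM in parental cells to 64.9 ± 3.21 CPM in BMP4 72 h. Directly below BMP4 72 h in Apoa1 came the Sox17-FKBP cells at 96, 72 and 48 h, with no overlap between neighbouring groups in that stretch. Apoe was highest in BMP4 72 h and BMP4 24 h and lowest in both Gata6-FKBP FoxA2-/- groups, which overlapped. Among the 19 pairs of groups that neighbour each other in the order of levels, libraries overlapped in 2 for Mttp, 4 for Apoe, 5 for Apoa1, 13 for Apom, 14 for Apoa4, 15 for Apoa2 and 17 for Apob. The order of the groups is therefore resolved far better for Mttp, Apoe and Apoa1 than for the genes at low levels. In bulk RNA, fewer cells that make a transcript and less of it per cell cannot be told apart.

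**Figure D1:**
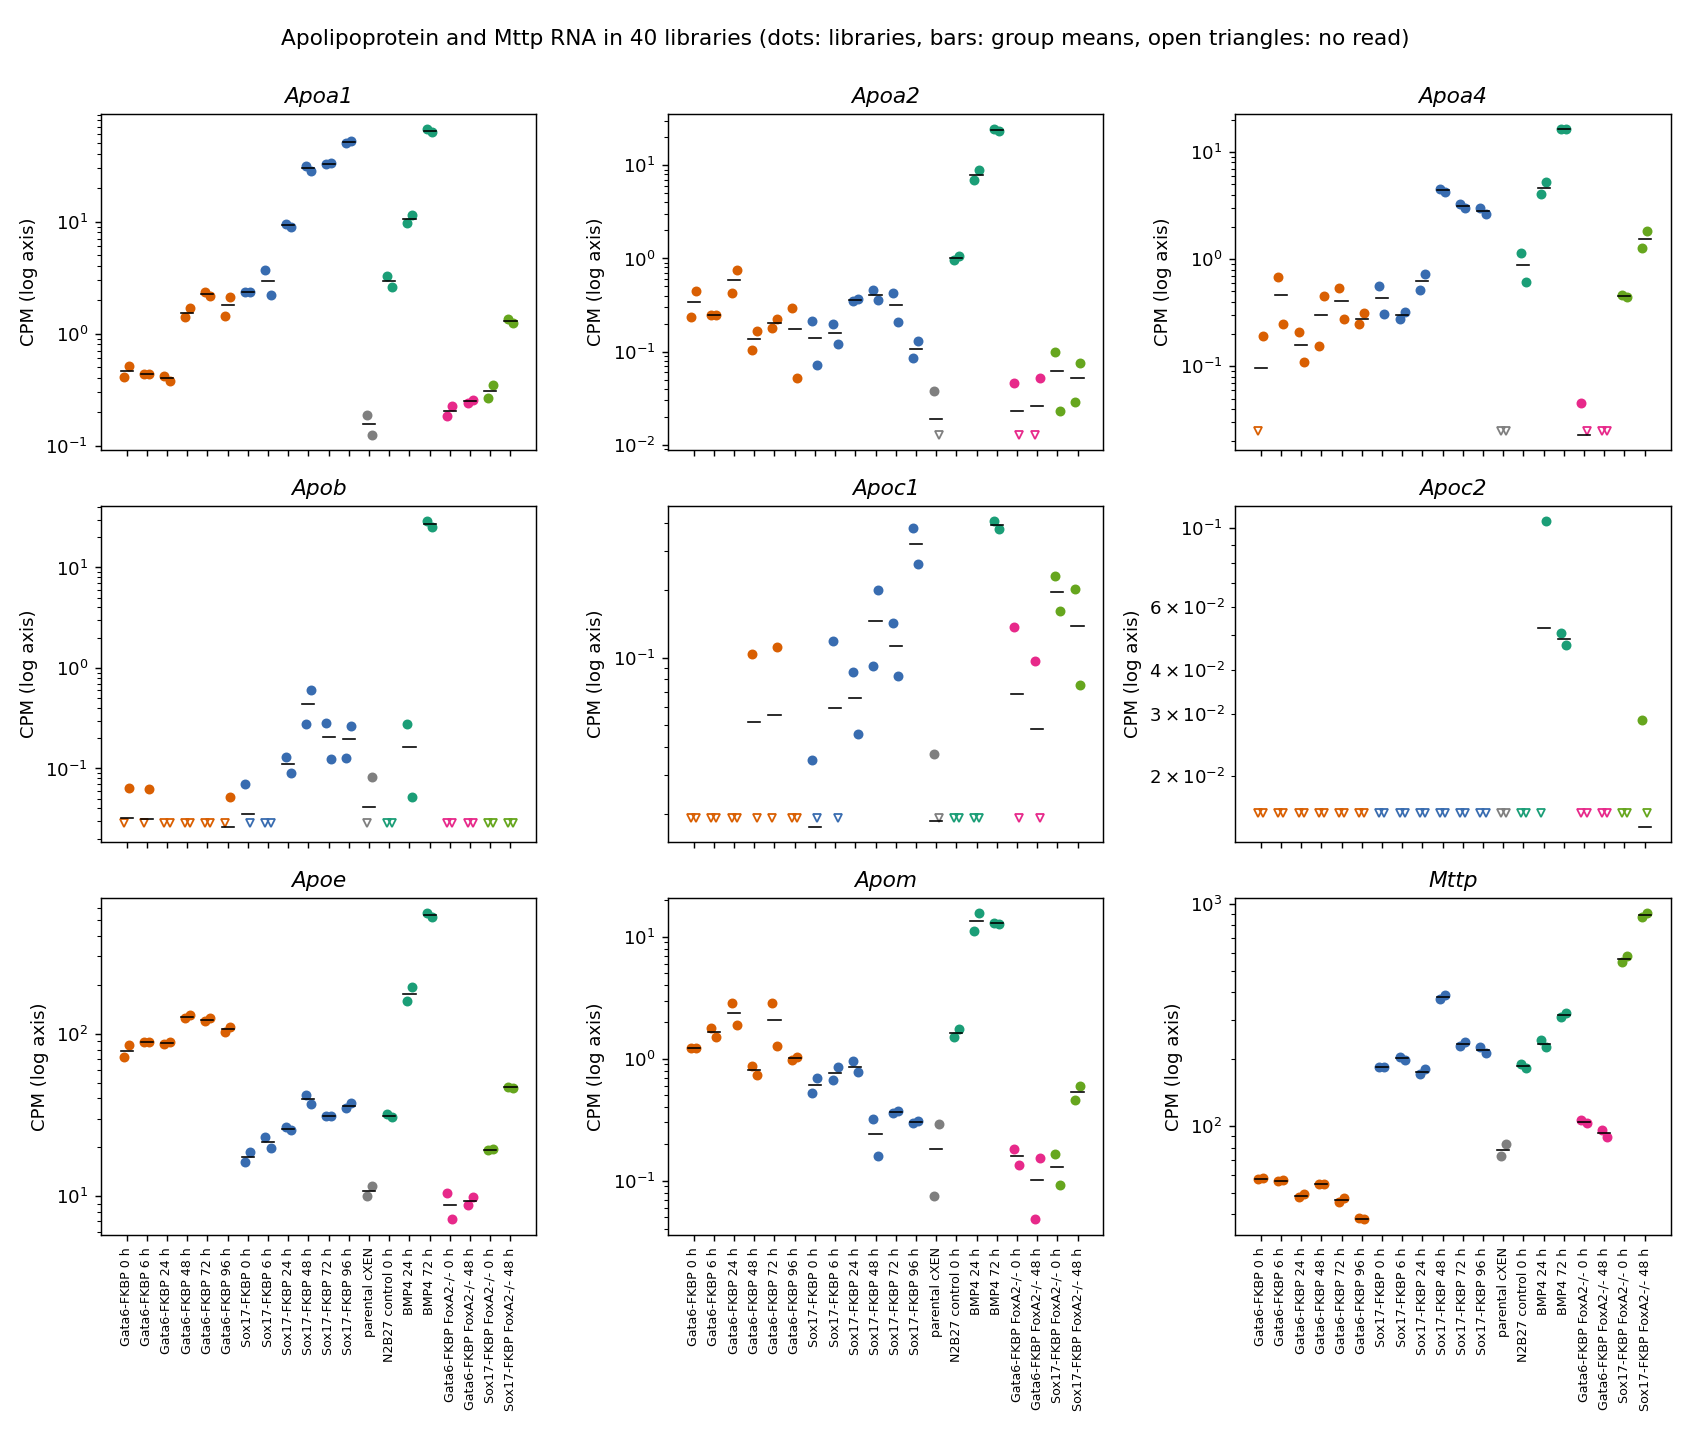
RNA of the 9 genes in each of 40 libraries (points, CPM on a log axis, a separate scale for each gene), with group means as bars and libraries without a read as open triangles. Apob was at 29.0 and 25.4 CPM in BMP4 72 h and at 0.60 CPM or less in every other library.

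Apoc1 and Apoc2 were near the limit of counting. Apoc1, whose protein slows the uptake of lipoproteins, had 0 to 9 reads per library and no read in 19 libraries. Its highest values, 0.41 and 0.38 CPM in BMP4 72 h, and 0.38 and 0.26 CPM in Sox17-FKBP 96 h, each rested on fewer than 10 reads. Apoc2, whose protein activates lipoprotein lipase, had 5 reads over 4 libraries. The whole Apoc2 span of 6363 bases lies within that of Gm44805, a gene that joins Apoc4 and Apoc2, and HTSeq leaves out reads that fall on more than a single gene, so the count of Apoc2 is no measure of its RNA. A further overlap, of 951 bases, joins the spans of Apoa2 and Tomm40l, and the strand setting of the counting is not given in the sources used here, so reads in that stretch are uncertain too.

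Apoa1, Apoa2, Apoa4, Apoe, Apom and Mttp rose within 24 h of BMP4, and Apob, without a read in the control, was high at 72 h. In the N2B27 control neither library had a read of Apob, BMP4 24 h had 0.278 and 0.0524 CPM, and BMP4 72 h had 29.0 and 25.4 CPM. Apob RNA at 72 h was thus at least 328-fold higher than the control, taking 3 counts over the control's libraries as the floor. Apob gathered 1112 of its 1172 reads in BMP4 72 h and passed the filter on low counts through that group, so its level there is a description, with no test, and it is left out of the counts for 72 h. At 24 h its 7 reads did not pass the test against the control (adjusted p = 0.0597, edgeR quasi-likelihood test). They passed in DESeq2 (adjusted p = 0.0257) and in edgeR with no filter on low counts (adjusted p = 0.017), so whether Apob rose later than the other genes is not resolved.

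The genes of high-density lipoprotein were higher by 24 h and went on rising to 72 h. Apoa1 went from 3.24 and 2.61 CPM in the control to 9.77 and 11.3 CPM at 24 h and 67.2 and 62.7 CPM at 72 h. Apoa2 went from 0.959 and 1.08 CPM to 6.99 and 8.97 CPM and then to 24.7 and 23.6 CPM. The 3 groups did not overlap in either gene. Against the control the log2 change of Apoa1 was 1.85 ± 0.16 at 24 h and 4.48 ± 0.15 at 72 h (adjusted p = 6.53e-19), and that of Apoa2 was 2.96 ± 0.29 and 4.56 ± 0.27 (adjusted p = 1.24e-13). Apoa4, a protein of intestinal lipoproteins, rose from 1.14 and 0.615 CPM to 4.07 and 5.24 CPM and then to 16.5 and 16.3 CPM, a log2 change of 4.24 ± 0.31 at 72 h (adjusted p = 1.38e-11).

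Apom took another course, and its rise was seen by 24 h. It was at 1.5 and 1.74 CPM in the control, 11.2 and 15.6 CPM at 24 h and 13.1 and 12.6 CPM at 72 h. Its log2 change was 3.03 ± 0.26 at 24 h (adjusted p = 8.13e-10), and from 24 to 72 h it was −0.06 ± 0.21 (adjusted p = 0.826), with the libraries of both times overlapping. Apoa1, Apoa2, Apoa4, Apoe and Mttp each rose further from 24 to 72 h, between 0.43 ± 0.06 for Mttp and 2.62 ± 0.13 for Apoa1, in a comparison that called 35.3% of all tested genes higher and 35% lower (70.3% in all).

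Apoe had 32.0 and 30.7 CPM in the control, 160 and 193 CPM at 24 h and 553 and 527 CPM at 72 h. Its log2 change was 2.49 ± 0.12 at 24 h and 4.11 ± 0.12 at 72 h (adjusted p = 7.26e-20). Mttp changed least, from 191 and 183 CPM to 244 and 226 CPM and then to 309 and 322 CPM, a log2 change of 0.76 ± 0.06 at 72 h (adjusted p = 3.08e-11).

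Of the 9 genes, 6 were called higher at 24 h, where 21.3% of all tested genes were called higher, and, Apob left out, the same 6 at 72 h, where the share was 31.6%. No gene was called lower, against 22.2 and 31.2% of all tested genes. In either direction 43.6% of all tested genes were called at 24 h and 62.8% at 72 h. In the same libraries the summed level of 10 hepatocyte markers went from 55.5 to 56.5 CPM in the control to 148 to 152 CPM at 72 h, with Alb, Serpina1a, Cyp3a11, Cyp2e1 and Tat at 0 in both libraries at 72 h. Over all libraries Ttr of this list reached 181 CPM, and the next highest, Fgb, 8.28 CPM. Outside the FoxA2 mutants this sum therefore follows mostly Ttr, which is also among the visceral endoderm markers. The sum of 16 visceral endoderm markers went from 3831 to 3841 CPM to 3536 to 3610 CPM, and that of 14 parietal endoderm markers from 57696 to 58033 CPM to 34840 to 35571 CPM, both with no marker at 0 at 72 h. Sums follow the most abundant genes, such as Cubn (median 875 CPM over all libraries). In the visceral endoderm list Afp, Rbp4, Hnf4a, Trf, Soat2, Fgb and Cdh1 had their highest group mean in BMP4 72 h. The other listed genes had theirs in other groups. The sum of 8 macrophage markers went from 7.85 to 9.32 CPM to 15.0 to 16.5 CPM, with Ptprc, Adgre1, Itgam and Fcgr1 at 0. Their part in the apolipoprotein changes was not tested. The p-values at 24 h pool the spread over all 40 libraries, while BMP4 24 h had the widest spread between its own. When the fit held only the control and BMP4 24 h, the rise of Mttp at 24 h did not pass (adjusted p = 0.115). That fit called 5 of the 9 genes, all higher, and 259 genes in all in place of 6371. The shares of all genes given for 24 h therefore rest on the pooled spread. With reads outside genes as a covariate, the steps from 24 to 72 h of Apoa2 and Apoa4 were lost (adjusted p = 0.227 and 0.142). In that fit Apom rose from 24 to 72 h by 2.85 (adjusted p = 0.0162).

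After 48 h of Sox17 loss, 6 of the 7 tested genes were higher and Apom was lower. Apoa1 was at 2.35 and 2.37 CPM at 0 h, 3.72 and 2.19 CPM at 6 h, 9.59 and 8.98 CPM at 24 h, 31.5 and 28.3 CPM at 48 h, 32.5 and 33.0 CPM at 72 h, and 50.2 and 51.8 CPM at 96 h. Every library from 24 h on lay above the libraries of 0 and 6 h. The log2 change against 0 h was 1.97 ± 0.15 at 24 h, 3.66 ± 0.14 at 48 h and 4.43 ± 0.14 at 96 h (adjusted p = 4.37e-19). From 48 to 96 h Apoa1 rose further, by 0.77 ± 0.12 (adjusted p = 1.01e-05).

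Apoa4, its neighbour in the cluster, rose later, between 24 and 48 h. It was at 0.561 and 0.311 CPM at 0 h and 0.518 and 0.729 CPM at 24 h, which overlapped, then at 4.48 and 4.28 CPM at 48 h and 2.99 and 2.63 CPM at 96 h. The log2 change was 3.38 ± 0.33 at 48 h (adjusted p = 1.19e-08) and 2.74 ± 0.35 at 96 h (adjusted p = 4.41e-07), and the difference of −0.64 ± 0.26 between 96 and 48 h did not pass (adjusted p = 0.104), though it did when only the libraries compared were fitted (adjusted p = 0.00865). Apoc3, which lies between them, belonged to a list of other apolipoproteins described further on.

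Mttp peaked at 48 h. Its levels were 185 and 185 CPM at 0 h, 171 and 180 CPM at 24 h, 374 and 390 CPM at 48 h, 229 and 239 CPM at 72 h and 228 and 212 CPM at 96 h. The log2 change was 1.05 ± 0.06 at 48 h (adjusted p = 1.84e-13), and from 48 to 96 h Mttp fell by 0.80 ± 0.06 (adjusted p = 5.45e-11). At 24 h the difference did not pass, −0.07 ± 0.06 (adjusted p = 0.371).

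Apoe rose from 16.3 and 18.8 CPM at 0 h to 26.7 and 25.4 CPM at 24 h, 42.1 and 36.8 CPM at 48 h and 34.9 and 37.2 CPM at 96 h. It was higher from 24 h (0.57 ± 0.12, adjusted p = 0.000499, or 0.0731 in a fit to only the libraries compared) and by 1.16 ± 0.11 at 48 h (adjusted p = 6.25e-09), with no overlap with 0 h. The libraries of 48 and 96 h overlapped.

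The 3 remaining tested genes were called on few reads. Apob had 2 reads at 0 h and 21 at 48 h, a ratio of 15.8 after scaling, with an exact 95% binomial interval from 3.85 to 139 that covers counting error only (log2 change 3.73 ± 0.93, adjusted p = 0.00429). Apoa2 went from 0.210 and 0.0717 CPM to 0.457 and 0.360 CPM (1.61 ± 0.57, adjusted p = 0.0325), and Apom fell from 0.526 and 0.693 CPM to 0.320 and 0.160 CPM (−1.38 ± 0.49, adjusted p = 0.0305). Apob lost its call without the second library of 0 h or of 48 h (adjusted p = 0.0802 and 0.0932), and Apom without either of the same (adjusted p = 0.208 and 0.298). Apoa2 lost it without the second library of 0 h or the first or second of 48 h (adjusted p = 0.368, 0.162 and 0.0729). Without the second library of either time, 4 genes were called in place of 7.

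Of the 9 genes, 6 were called higher and 1 lower at 48 h, where 16.3% of all tested genes were called higher and 14.6% lower (30.9% in all). The count was 0 at 6 h, when 1.74% of all genes were called (0.991% higher, 0.752% lower), with 2 genes at an unadjusted p under 0.05 and 0 called by DESeq2. It was 2 at 24 h, both higher, where 17.4% of all tested genes were called higher (30.4% in all). It was 4 at 72 and at 96 h, all higher, where 21.2 and 23.3% were called higher (36.1 and 40.5% in all). The median log2 change of the 7 at 48 h was 1.61, beside 0.02 for all tested genes. That median is the value of Apoa2, which rests on 9 reads at 0 h and 19 at 48 h. Hnf4a, a regulator of apolipoprotein genes in liver, rose by 0.53 ± 0.11 at 48 h (adjusted p = 0.000431). The summed level of the hepatocyte markers, mostly Ttr, went from 32.4 to 35.2 CPM at 0 h to 107 CPM in both libraries at 48 h and 51.1 to 52.0 CPM at 96 h. Serpina1a, Cyp3a11, Cyp2e1 and Tat were at 0 at 48 h. The sum of 8 macrophage markers went from 13.6 to 14.9 CPM at 0 h to 17.3 to 17.5 CPM at 48 h and 38.5 to 42.4 CPM at 96 h, with Ptprc and Itgam at 0 at both times. The parietal endoderm markers went from 47671 to 49105 CPM at 0 h to 65320 to 67560 CPM at 48 h, with none at 0. Their part in the result was not tested.

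After loss of Gata6, Apoa1 and Apoe were higher and Mttp was lower. Apoa1 was at 0.411 and 0.514 CPM at 0 h, 0.421 and 0.380 CPM at 24 h, 1.40 and 1.68 CPM at 48 h, 2.36 and 2.17 CPM at 72 h and 1.42 and 2.14 CPM at 96 h. All libraries from 48 h on lay above those of 0, 6 and 24 h, and the log2 change was 1.73 ± 0.33 at 48 h (adjusted p = 0.00012) and 2.28 ± 0.31 at 72 h (adjusted p = 8.77e-07). Apoe rose from 72.2 and 85.0 CPM to 125 and 130 CPM at 48 h and stood at 103 and 110 CPM at 96 h, by 0.70 ± 0.11 (adjusted p = 7.02e-06) and 0.44 ± 0.11 (adjusted p = 0.00159).

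Mttp declined over the same course, opposite to its rise after loss of Sox17. It was at 57.5 and 58.3 CPM at 0 h, 47.9 and 49.4 CPM at 24 h, 55.1 and 54.9 CPM at 48 h, 45.7 and 47.4 CPM at 72 h and 38.4 and 38.0 CPM at 96 h. Every library after 0 h was below both libraries of 0 h, but at 48 h the difference did not pass (−0.08 ± 0.06, adjusted p = 0.373). From 24 to 48 h Mttp rose by 0.18 ± 0.06 (adjusted p = 0.0203). That call was lost without the first library of 24 h or either of 48 h (adjusted p = 0.122, 0.0553 and 0.0668), with no filter on low counts (adjusted p = 0.161) and with a covariate for reads outside genes (adjusted p = 0.133). At 72 h Mttp had fallen by 0.31 ± 0.06 (adjusted p = 0.000239, or 0.0553 when only the libraries compared were fitted). At 96 h it had fallen by 0.60 ± 0.06 (adjusted p = 2.18e-08).

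Apom rose at 24 h, from 1.23 and 1.22 CPM to 2.84 and 1.90 CPM (0.95 ± 0.33, adjusted p = 0.0389). At 48 h it was at 0.879 and 0.729 CPM and had fallen by 1.55 ± 0.34 since 24 h (adjusted p = 0.000398), or by 0.02 with reads outside genes as a covariate. The rise of Apom at 24 h was lost without the first library of 24 h or either library of 0 h (adjusted p = 0.329, 0.247 and 0.106). The decline of Mttp at 24 h was lost without the first library of 0 h or of 24 h (adjusted p = 0.0782 and 0.0705). Apoa2, Apoa4 and Apob were on 0 to 22 reads a group in this course and none passed the test against 0 h. Apoa4 came closest, with 14 reads at 72 h and 3 at 0 h, a ratio of 4.41 with a 95% interval from 1.23 to 23.9 (adjusted p = 0.0594), and passed in DESeq2 (adjusted p = 0.0489). Of the 9 genes, 0 were called at 6 h (13.9% of all tested genes, 3.43% higher and 10.4% lower), with 1 at an unadjusted p under 0.05 and 0 by DESeq2. There were then 1 higher and 1 lower at 24 h (7.11 and 14.3%, together 21.4%), 2 at 48 h (40.1%), 3 at 72 h (39.6%) and 3 at 96 h (40.3%). Leaving out the second library of 0 h gave 1 call at 6 h, and leaving out the second of 72 h gave 5 calls at 72 h. At 48 h both calls were higher, where 18.2% of all genes were called higher and 21.9% lower. The summed hepatocyte markers, mostly Ttr, went from 23.5 to 28.6 CPM at 0 h to 53.0 to 58.2 CPM at 48 h. Alb, Serpina1a, Cyp3a11, Cyp2e1 and Cps1 were at 0 at 48 h. The summed visceral endoderm markers went from 2067 to 2095 CPM to 1625 to 1646 CPM, while 14 of 16 were at 1 CPM or more at 0 h and 15 at 48 h. Their part in the changes of Apoa1 and Apoe was not tested.

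The responses to 48 h of loss were compared with each other directly, as the log2 change of the Sox17-FKBP line minus that of the Gata6-FKBP line. The difference was 1.12 ± 0.09 for Mttp (adjusted p = 3.24e-10), 1.94 ± 0.43 for Apoa1 (adjusted p = 0.00187), 2.91 ± 0.94 for Apoa2 (adjusted p = 0.0318) and 0.47 ± 0.16 for Apoe (adjusted p = 0.0387). All 4 called differences were positive, where 11% of all tested genes had a higher and 6.16% a lower difference (17.1% in all). Apoa2 and Mttp did not rise after loss of Gata6. Their log2 changes there were −1.29 ± 0.75, on 11 reads at 0 h and 5 at 48 h, and −0.08 ± 0.06. Neither was called (adjusted p = 0.176 and 0.373). The call of Apoa1 was lost without the second library of Gata6-FKBP 0 h (adjusted p = 0.0737). Those of Apoa2 and Apoe were lost without any of 5 libraries each (adjusted p = 0.0592 to 0.215 and 0.0705 to 0.206), and that of Mttp in no setting tried. The call of Apoe was also lost with median-of-ratios scaling (adjusted p = 0.0512), and with reads outside genes as a covariate those of Apoa2 and Apoe were (adjusted p = 0.0711 and 0.214). Without the second library of Gata6-FKBP 0 h 1 gene was called, and without either of Gata6-FKBP 48 h or the first of Sox17-FKBP 48 h 2 were.

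**Figure D2:**
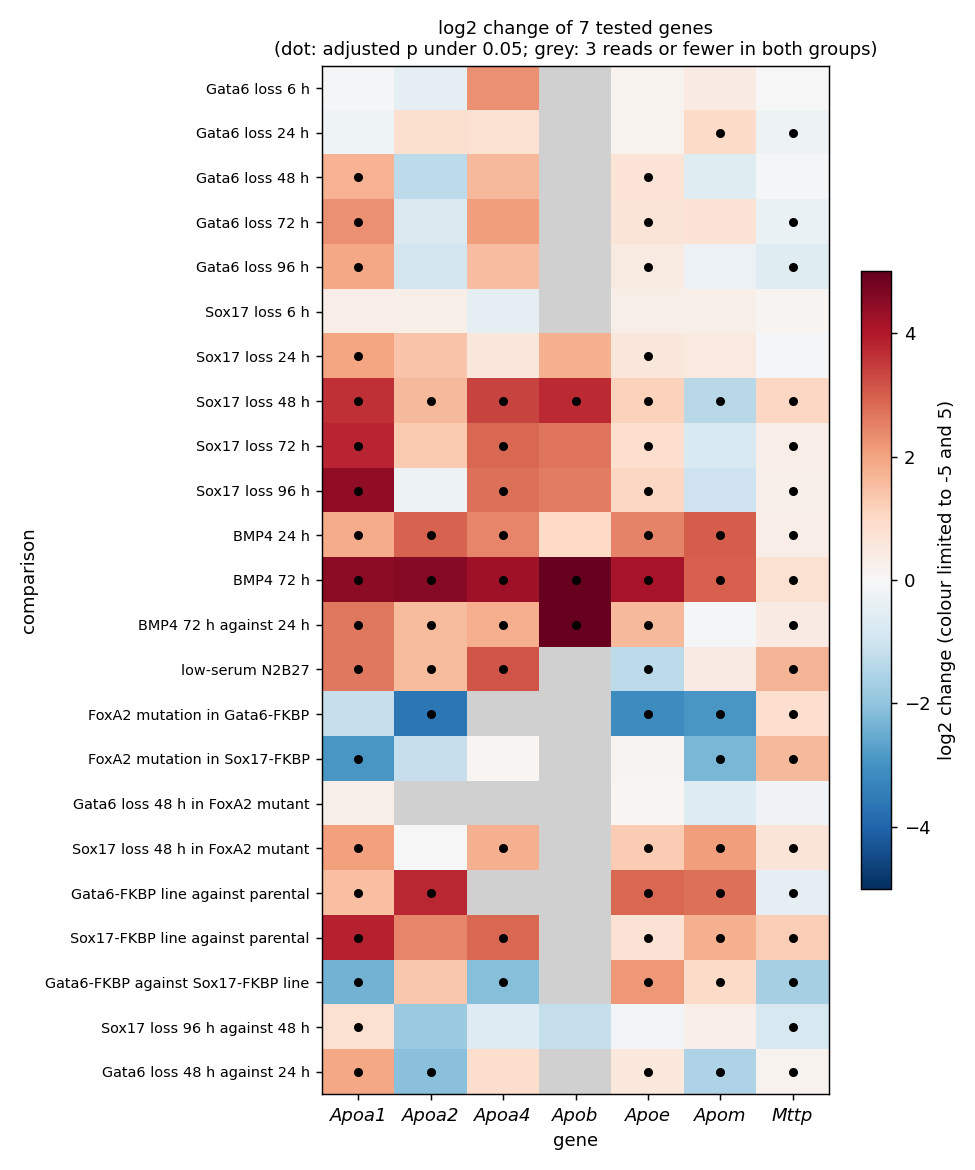
log2 change of the 7 tested genes (columns) in 23 comparisons of groups (rows), coloured from blue (lower in the group named first) to red (higher), with a dot where the adjusted p was under 0.05 and grey where both groups had 3 reads or fewer. The BMP4 72 h row is red throughout, with Apob tested only because of that group, and the row of Gata6 loss in the FoxA2 mutant has 0.

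With FoxA2 mutation Apom was lower and Mttp higher in both lines, while Apoe was lower in a single line. No label gives the clones of the mutant cells, so mutation, clone and culture may differ together and cannot be told apart. Apoe was at 72.2 and 85.0 CPM in the Gata6-FKBP cells and at 10.4 and 7.18 CPM in the Gata6-FKBP FoxA2-/- cells at 0 h, against 16.3 and 18.8 CPM and 19.2 and 19.5 CPM in the Sox17-FKBP pair. The groups did not overlap in either line. The log2 change was −3.16 ± 0.13 in the Gata6-FKBP line (adjusted p = 9.06e-18) and 0.14 ± 0.12 in the Sox17-FKBP line (adjusted p = 0.334, or 0.0432 with reads outside genes as a covariate). The difference between the lines was 3.30 ± 0.17 (adjusted p = 4.57e-15). Before mutation Apoe was 4.48-fold higher in the Gata6-FKBP line, so the lines started from unequal levels.

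Mttp went from 57.5 and 58.3 CPM to 106 and 103 CPM in the Gata6-FKBP line and from 185 and 185 CPM to 550 and 581 CPM in the Sox17-FKBP line. The rise was 0.85 ± 0.06 in the former (adjusted p = 4.88e-12) and 1.61 ± 0.06 in the latter (adjusted p = 9.68e-19), and it was larger in the Sox17-FKBP line by 0.76 ± 0.09 (adjusted p = 3.25e-08).

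Apom fell from 1.23 and 1.22 CPM to 0.183 and 0.135 CPM in the Gata6-FKBP line (−2.91 ± 0.53, adjusted p = 4.01e-05) and from 0.526 and 0.693 CPM to 0.166 and 0.0924 CPM in the Sox17-FKBP line (−2.29 ± 0.49, adjusted p = 0.000296). Apoa1 fell in the Sox17-FKBP line, from 2.35 and 2.37 CPM to 0.265 and 0.346 CPM (−2.89 ± 0.24, adjusted p = 5e-11). It was at 0.183 and 0.224 CPM against 0.411 and 0.514 CPM in the Gata6-FKBP line, which did not pass (−1.15 ± 0.49, adjusted p = 0.0912). The fall of Apoa1 was larger in the Sox17-FKBP line by 1.74 ± 0.61 (adjusted p = 0.0405), a call lost without any of 5 libraries (adjusted p = 0.0529 to 0.198) and with no filter on low counts (adjusted p = 0.0678). Apoa2 fell in the Gata6-FKBP line from 11 reads to 1, a ratio of 0.0671 with a 95% interval from 0.00156 to 0.462 (adjusted p = 0.00425), and the call was lost without the second library of either group (adjusted p = 0.0569 and 0.0511).

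Of the 9 genes, 1 was called higher and 3 lower in the Gata6-FKBP line, where 24.6% of all tested genes were called higher and 23.7% lower, and 1 higher and 2 lower in the Sox17-FKBP line, where the shares were 26 and 24.6%. In either direction 48.3 and 50.6% of all tested genes were called. Hnf4a fell from 34.0 ± 4.24 to 0.591 ± 0.328 CPM in the Gata6-FKBP line and from 15.0 ± 0.472 to 9.43 ± 0.635 CPM in the Sox17-FKBP line. The log2 changes were −5.84 ± 0.18 (adjusted p = 3.35e-20) and −0.67 ± 0.11 (adjusted p = 1.33e-05). Summed hepatocyte markers, mostly Ttr in the cells with FoxA2, were 23.5 to 28.6 CPM and 0.628 to 0.777 CPM in the Gata6-FKBP pair, with 7 of the 10 at 0 in the mutant. They were 32.4 to 35.2 CPM and 1.23 to 1.48 CPM in the Sox17-FKBP pair, with 5 of 10 at 0. The sum of 8 trophoblast markers was 1.47 to 1.54 CPM and 19.1 to 19.2 CPM in the former and 7.07 to 8.24 CPM and 5.87 to 6.23 CPM in the latter. Tpbpa was at 0 in all these groups and Tfap2c except in the Gata6-FKBP mutant. Of the 4 trophoblast genes tested, 4 rose in the former and 3 rose and 1 fell in the latter. Summed macrophage markers were 3.70 to 3.72 CPM and 22.4 to 25.9 CPM in the Gata6-FKBP pair, with Ptprc, Itgam and Fcgr1 at 0 in both, and 13.6 to 14.9 CPM and 12.8 to 13.6 CPM in the Sox17-FKBP pair. The summed visceral endoderm markers went from 2067 to 2095 CPM to 2802 to 3045 CPM in the Gata6-FKBP pair, with Ttr and Trf at 0 in the mutant, and from 1893 to 1929 CPM to 4133 to 4425 CPM in the Sox17-FKBP pair, with Trf at 0. The list was mixed, as Hnf4a, which is on it, fell in both lines. Visceral endoderm markers at 1 CPM or more went from 14 to 11 in the Gata6-FKBP pair and from 13 to 11 in the Sox17-FKBP pair. The parietal endoderm markers went from 55223 to 59092 CPM to 28497 to 29323 CPM and from 47671 to 49105 CPM to 39183 to 40077 CPM, with Gkn2 at 0 in both mutants. The part of these markers in the apolipoprotein changes was not tested.

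In the FoxA2 mutants, 5 of these genes were higher after loss of Sox17, and none changed detectably after loss of Gata6. After loss of Sox17 in the mutant, Apoe went from 19.2 and 19.5 CPM to 47.0 and 46.3 CPM, by 1.27 ± 0.11 (adjusted p = 1.97e-08). Mttp went from 550 and 581 CPM to 873 and 907 CPM, by 0.65 ± 0.06 (adjusted p = 3.01e-08). Apoa1 went from 0.265 and 0.346 CPM to 1.35 and 1.25 CPM, by 2.04 ± 0.27 (adjusted p = 2.08e-05). Apoa4 went from 0.464 and 0.439 CPM to 1.27 and 1.83 CPM (1.78 ± 0.35, adjusted p = 0.0028).

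Apom turned from a fall to a rise. It went from 0.166 and 0.0924 CPM to 0.460 and 0.602 CPM in the mutant (2.07 ± 0.50, adjusted p = 0.0174), where in the cells with FoxA2 it fell by 1.38. Altogether 5 of the 9 genes were called higher and 0 lower in a comparison that called 2.76% of all tested genes, 1.52% higher and 1.23% lower. The call of Apoa4 was lost without the second library of 0 h or of 48 h (adjusted p = 0.0839 and 0.102). The call of Apom was lost without the first or second of 0 h or the second of 48 h (adjusted p = 0.0526, 0.368 and 0.222). Without the second library of either time, 3 genes were called. Apoa1, Apoe and Mttp passed in every setting tried. Hnf4a rose in this comparison as well, by 1.22 ± 0.11 (adjusted p = 3.84e-08), to 21.9 ± 0.486 CPM. The summed hepatocyte markers were at 1.23 to 1.48 CPM at 0 h and 0.828 to 1.496 CPM at 48 h, with Alb, Serpina1a, Cyp3a11, Cyp2e1 and Tat at 0 in both groups. The summed visceral endoderm markers went from 4133 to 4425 CPM to 6065 to 6118 CPM, with Trf at 0 and 11 of 16 at 1 CPM or more in both groups. The sum of the 9 primitive endoderm and XEN markers went from 4426 to 4662 CPM to 5407 to 5487 CPM, with none at 0. Their part in the rises was not tested.

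In the Gata6-FKBP FoxA2-/- cells 0 of the 9 genes were called at 48 h, by edgeR and by DESeq2, with 1 at an unadjusted p under 0.05, and 0.239% of all tested genes were called. Apoe was at 10.4 and 7.18 CPM at 0 h and 8.86 and 9.81 CPM at 48 h, overlapping (0.09 ± 0.14, adjusted p = 0.872), and Apoa1 at 0.183 and 0.224 CPM and 0.241 and 0.257 CPM (0.28 ± 0.54, adjusted p = 0.92). Mttp was at 106 and 103 CPM and 96.1 and 89.4 CPM (−0.17 ± 0.06, adjusted p = 0.335). Apoa2, Apoa4 and Apob had 0 or 1 read a group.

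The response in the mutant minus that in cells with FoxA2 was tested as a difference. After loss of Sox17 it was −1.62 ± 0.36 for Apoa1 (adjusted p = 0.00186), −0.39 ± 0.08 for Mttp (adjusted p = 0.00136), and −1.59 ± 0.52 for Apoa4 (adjusted p = 0.0385). For Apom it was 3.46 ± 0.70 (adjusted p = 0.000854), and for Apoe it was 0.11 ± 0.16 (adjusted p = 0.766). The rise of Apoe thus differed by less than its error, those of Apoa1, Apoa4 and Mttp were smaller in the mutant, and Apom went the other way. Of all tested genes, 6.9% had a higher and 7.51% a lower difference (14.4% in all). The call of Apoa4 was lost without any of 6 of the 8 libraries (adjusted p = 0.0698 to 0.253) and that of Apoa1 without the second Sox17-FKBP FoxA2-/- library of 0 h (adjusted p = 0.143), where 2 of the 4 calls were left. After loss of Gata6, Apoe responded less in the mutant, by −0.61 ± 0.18 (adjusted p = 0.00998, among 27% of all tested genes). The call was lost without the first Gata6-FKBP FoxA2-/- library of 0 h (adjusted p = 0.203) and in a fit to only the libraries compared (adjusted p = 0.0575).

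**Figure D3:**
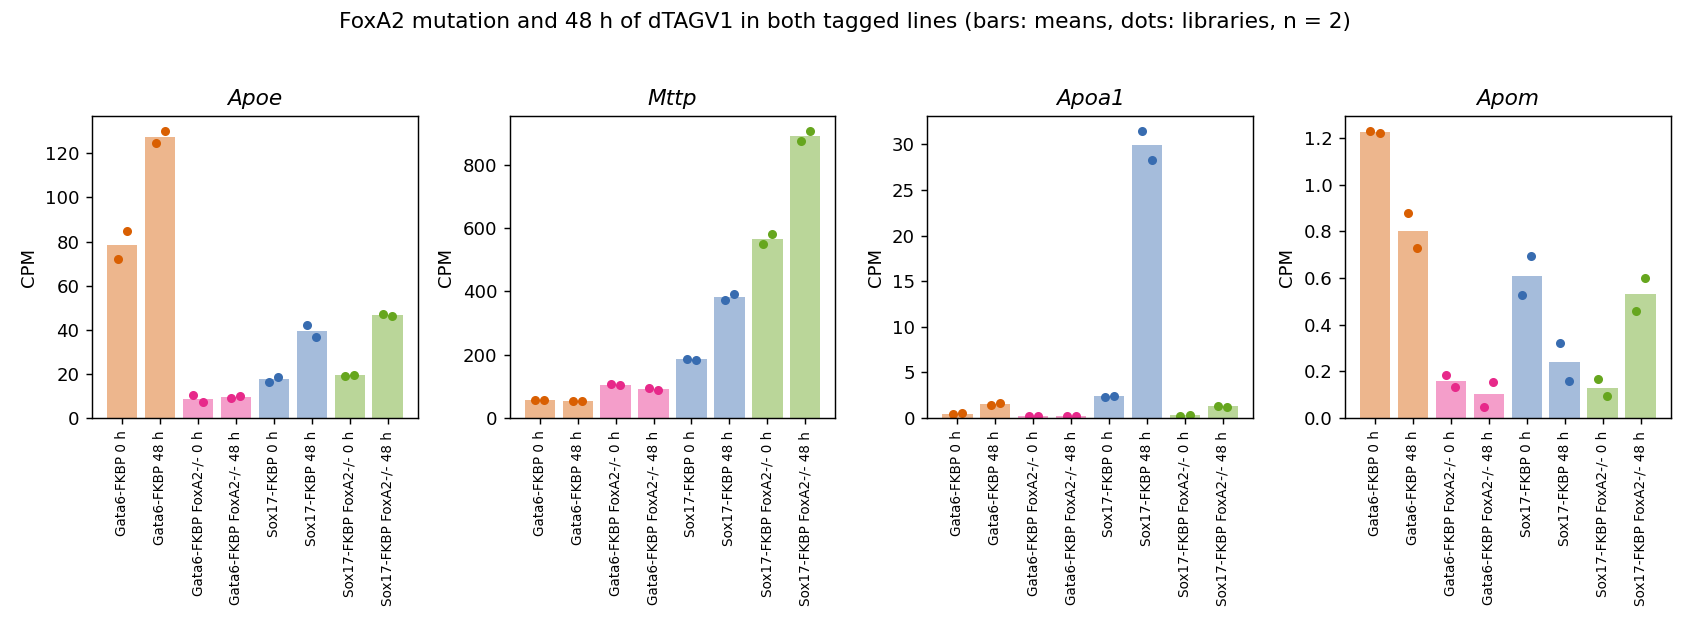
Apoe, Mttp, Apoa1 and Apom (CPM, linear axes from 0, bars for means and points for both libraries) in cells with and without FoxA2, at 0 and 48 h of dTAGV1. Apoe in the Gata6-FKBP line drops from 72.2 and 85.0 CPM to 10.4 and 7.18 CPM with the mutation, and Mttp is highest, at 873 and 907 CPM, in the Sox17-FKBP FoxA2-/- cells at 48 h.

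The lines differed from each other before any dTAGV1. Apoe was at 9.99 and 11.6 CPM in parental cells, below the 72.2 and 85.0 CPM of the Gata6-FKBP line (2.87 ± 0.12 higher there, adjusted p = 6.72e-17). It was also below the 16.3 and 18.8 CPM of the Sox17-FKBP line (0.71 ± 0.12 higher, adjusted p = 1.93e-05). Mttp, at 73.6 and 83.1 CPM in parental cells, was lower in the Gata6-FKBP line by 0.44 ± 0.06 (adjusted p = 1.52e-06) and higher in the Sox17-FKBP line by 1.24 ± 0.06 (adjusted p = 7.82e-16). Apoa1, at 0.186 and 0.124 CPM in parental cells, was 15.2-fold higher in the Sox17-FKBP line (adjusted p = 3.21e-11).

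Against parental cells 4 of the 9 genes were called higher and 1 lower in the Gata6-FKBP line (23.4 and 24.4% of all tested genes) and 5 higher and 0 lower in the Sox17-FKBP line (25.8 and 31.3%). Between the tagged lines 5 were called, 2 higher and 3 lower in the Gata6-FKBP line, where 48% of all tested genes were called (27.4% higher, 20.6% lower), and 3 without the first Gata6-FKBP library. The parental cells alone held high fibroblast markers, and their part in these differences was not tested. The tag, the clone and the culture differ together between the lines and cannot be told apart.

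Medium with 1% serum, at the start of the BMP4 course, also went with different levels. Against Gata6-FKBP cells in 15% serum, the N2B27 control had Apoa1 at 3.24 and 2.61 CPM against 0.411 and 0.514 CPM (2.65 ± 0.29, adjusted p = 4.15e-08). It had Mttp at 191 and 183 CPM against 57.5 and 58.3 CPM (1.69 ± 0.06, adjusted p = 3.56e-17). Apoe was lower, at 32.0 and 30.7 CPM against 72.2 and 85.0 CPM (−1.32 ± 0.11, adjusted p = 4.27e-10). Altogether 4 of the 9 genes were called higher and 1 lower, where 20.1 and 21.4% of all tested genes were (41.5% in all). The summed hepatocyte markers, mostly Ttr, were 55.5 to 56.5 CPM against 23.5 to 28.6 CPM. The summed visceral endoderm markers were 3831 to 3841 CPM against 2067 to 2095 CPM, and the macrophage markers 7.85 to 9.32 CPM against 3.70 to 3.72 CPM. Alb, Trf and Ptprc were among those at 0 in the N2B27 control, and the part of these markers was not tested. Before any BMP4, Mttp and Apoa1 were therefore raised and Apoe lowered relative to the Gata6-FKBP line in its usual medium, and medium and culture history differ together here. The titles of the N2B27 control name XEN cells, so the line may differ as well, and these cannot be told apart.

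The genes that make, receive and remodel lipoproteins were read from 6 further lists. Of all tested genes, 18.2% were called higher and 21.9% lower after 48 h of Gata6 loss, and 16.3 and 14.6% after 48 h of Sox17 loss. The shares were 31.6 and 31.2% in BMP4 72 h. With FoxA2 mutation they were 24.6 and 23.7% in the Gata6-FKBP line and 26 and 24.6% in the Sox17-FKBP line. The counts of each list stand beside these shares. Of 15 other apolipoprotein genes, among them Apoc3, Apoa5, Apoh and Clu, 5 had enough reads to be tested. Clu, a secreted chaperone carried on lipoproteins, rose from 178 ± 7.80 to 340 ± 4.38 CPM after loss of Sox17 (0.93 ± 0.09, adjusted p = 2.63e-09). In the Sox17-FKBP FoxA2-/- cells it was at 10.3 ± 0.966 CPM (−4.10 ± 0.10, adjusted p = 1.31e-22). In BMP4 72 h, 3 of the 5 were higher and 2 lower, with Apool, a mitochondrial protein, up by 1.00 ± 0.13 and Clu down by 0.57 ± 0.09.

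Of 18 genes of lipoprotein assembly and export, 8 were higher and 0 lower after 48 h of Sox17 loss (median log2 change 0.25, against 0.02 over all genes), and 7 higher and 4 lower in BMP4 72 h (median 0.14, against 0). Soat2, which makes cholesteryl esters in the endoplasmic reticulum, rose in both, by 1.28 ± 0.13 (adjusted p = 6.97e-09) and 1.63 ± 0.13 (adjusted p = 2.43e-11). It also rose by 0.96 ± 0.13 after 48 h of Gata6 loss (adjusted p = 8.7e-07), where 6 of the list were higher and 3 lower. P4hb, the partner subunit of the microsomal transfer protein, went the other way from Mttp in BMP4 72 h, from 4056 ± 48.0 to 1991 ± 50.5 CPM (−1.03 ± 0.06, adjusted p = 1.93e-13). In the FoxA2 mutants 3 were higher and 8 lower in the Gata6-FKBP line and 6 higher and 5 lower in the Sox17-FKBP line, where Dgat2, an enzyme of triglyceride synthesis, rose by 2.80 ± 0.13 (adjusted p = 5.64e-17).

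Among 17 tested lipoprotein receptor genes and their partners, 5 were higher and 7 lower after Gata6 loss, 5 higher and 6 lower after Sox17 loss, 8 higher and 5 lower in BMP4 72 h, and 9 higher and 6 lower in each FoxA2 mutant. Vldlr, a receptor for lipoproteins that carry apolipoprotein E, rose from 17.4 ± 2.23 to 152 ± 0.305 CPM after Gata6 loss, from 4.79 ± 0.659 to 93.7 ± 1.43 CPM after Sox17 loss and from 6.94 ± 0.692 to 76.0 ± 4.92 CPM in BMP4 72 h. In the Sox17-FKBP FoxA2-/- cells it was at 169 ± 0.829 CPM (5.15 ± 0.17, adjusted p = 8.7e-20). Lrpap1, a chaperone of these receptors, fell by 1.10 ± 0.07 after Gata6 loss and by 0.91 ± 0.06 in BMP4 72 h.

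Of 14 tested genes of lipoprotein remodelling and sterol export, 6 were higher and 1 lower after Gata6 loss, 7 higher and 2 lower after Sox17 loss, and 5 higher and 2 lower in BMP4 72 h. Lipg, endothelial lipase, was a gene that fell in each, by 0.66 ± 0.08, 0.51 ± 0.08 and 2.28 ± 0.09. In the FoxA2 mutants 4 were higher and 7 lower in the Gata6-FKBP line, with Lpl, lipoprotein lipase, up from 1.32 ± 0.783 to 26.1 ± 2.23 CPM, and 5 higher and 3 lower in the Sox17-FKBP line.

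Of 20 tested regulators, 8 were higher and 5 lower in BMP4 72 h, among them Creb3l3, a liver and gut activator of apolipoprotein genes, from 0.308 ± 0.0732 to 12.1 ± 1.5 CPM, and Hnf4a, from 32.3 ± 0.807 to 91.3 ± 0.809 CPM. The counts were 4 higher and 3 lower after Gata6 loss, 6 and 2 after Sox17 loss, 4 and 8 with FoxA2 mutation in the Gata6-FKBP line and 5 and 10 in the Sox17-FKBP line. Of 13 tested genes of fatty acid uptake and binding, 2 were higher and 2 lower after Gata6 loss, 5 and 2 after Sox17 loss, and 5 and 3 in BMP4 72 h. The counts were 4 and 2 with FoxA2 mutation in the Gata6-FKBP line and 2 and 5 in the Sox17-FKBP line, where Fabp5 fell from 47.7 ± 2.65 to 0.34 ± 0.106 CPM. No list was tested as a whole, and nothing particular to a list is read from these counts.

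**Figure D4:**
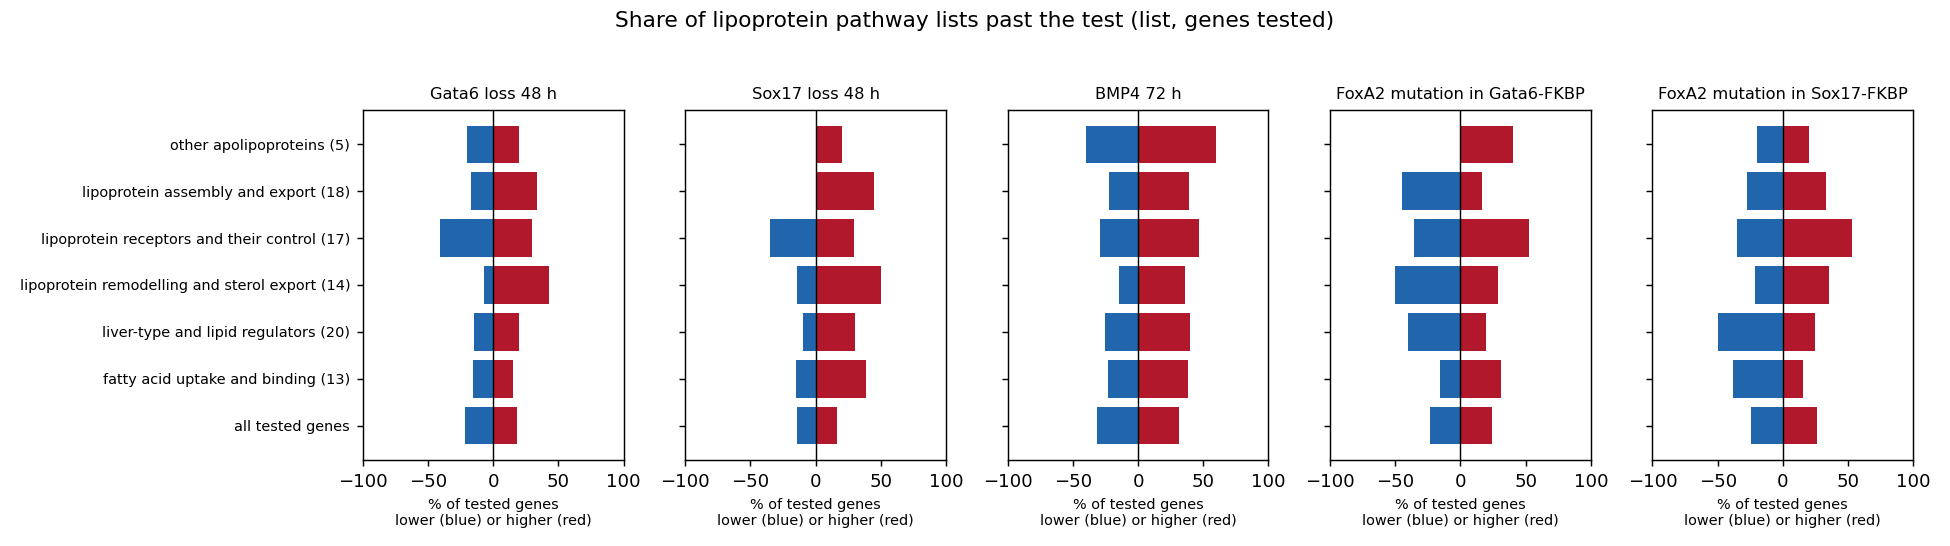
Share of the tested genes of 6 lists called higher (red, to the right, percent) or lower (blue, to the left) in 5 comparisons, with all tested genes as the last bar and the number of genes tested in brackets. Of 18 assembly and export genes, 8 were higher and 0 lower after Sox17 loss at 48 h.

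The 7 tested genes did not share a single pattern. Over the 20 group means of log2 CPM, which share lines and controls, the Pearson correlation was 0.89 between Apoa1 and Apoa4, 0.87 between Apoa2 and Apom and 0.85 between Apoe and Apom, and −0.14 between Apoe and Mttp. The genes most like Apoa1 among 13021 ranked were Hrc (0.95), Muc13 (0.95) and Siae (0.92), those most like Apoe were Cideb (0.95), Dnajc22 (0.93) and Baiap2l2 (0.91), and those most like Mttp were Cubn (0.90), Snap29 (0.89) and Nfe2 (0.89). Cideb encodes a protein that acts in the loading of very low-density lipoprotein with lipid, and Cubn a receptor of the visceral endoderm that binds apolipoprotein A-I. Apoa2 was most like Serpinf2, Cdkn1c and Serpina10 (0.94, 0.93 and 0.92), Apoa4 like Fam117a, Tnni3 and Apoa1 (0.92, 0.92 and 0.89), Apob like Cfi, Ttll10 and Cfb (0.95, 0.95 and 0.94) and Apom like Kdf1, Rab11fip4 and Gltpd2 (0.94, 0.92 and 0.91). For Apob such a value rests on BMP4 72 h, the group that held nearly all of its reads.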

How the data were processed

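RNA-seq counts of 40 libraries were analysed. Per the submitters' processing notes the authors used HISAT2, HTSeq and mm10; versions, annotation release and strand setting are not given in the sources used here. The deposited values are raw counts per Ensembl gene. HTSeq's totals for reads outside genes (3.99 to 10.4 per 100 gene reads), ambiguous and unaligned reads were kept out of library sizes. Symbols were found for 47224 of 47729 IDs.

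Counts were tested with the quasi-likelihood F test of edgeR 4.0.16 (R 4.3.3, limma 3.58.1). A single model with 1 coefficient for each group held all 40 libraries, scaled by TMM. The filterByExpr rule kept 14625 genes, and 20 residual degrees of freedom remained (biological coefficient of variation 8.22%). A call needs an adjusted p (Benjamini-Hochberg, all tested genes, each comparison separately) below 0.05. There were 23 comparisons of groups and 4 tests of a difference of responses. Standard errors are the log2 change over the square root of F. Levels are CPM of TMM-scaled libraries. A group without reads is given the floor of 3 counts over its libraries; floors and intervals cover counting error only. Genes of similar pattern are the 3 with the highest Pearson correlation of group means of log2 CPM (prior count 2).

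Of the pathway lists, the text names the 9 genes everywhere and chiefly the 2 of smallest adjusted p per list in 5 comparisons; Hnf4a and Foxa2 were added for the levels of regulators. The genes, lists and tests were chosen with earlier results of these data known. Replicate numbers share no stated culture or day, and the correlations of their deviations ran from −0.15 to 0.15 over 23 comparisons, so replicates were unpaired. Each result was recomputed with DESeq2 1.42.0, with its median-of-ratios scaling in edgeR, without the filter, on only the libraries compared, with a replicate block, with reads outside genes as a covariate, and without each library in turn. Promoter sequences are RefSeq's on GRCm38.p6. Transcript lengths were not used, so levels are not compared between genes.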

Additional observations from a re-analysis of the deposited data

Results flagged for a closer look

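Several genes responded differently in 2 lines or genotypes, by a test of the difference itself in edgeR's quasi-likelihood model. The log2 change with FoxA2 mutation in the Sox17-FKBP line minus that in the Gata6-FKBP line was 3.30 for Apoe, 0.76 for Mttp and −1.74 for Apoa1. For Apoe the change was −3.16 in the Gata6-FKBP line and 0.14, which did not pass, in the Sox17-FKBP line. The log2 change with Sox17 loss at 48 h minus that with Gata6 loss was 1.94 for Apoa1, 2.91 for Apoa2, 0.47 for Apoe and 1.12 for Mttp. In the FoxA2 mutant, the response to Sox17 loss differed by −1.62 for Apoa1, −1.59 for Apoa4, 3.46 for Apom and −0.39 for Mttp, and the response to Gata6 loss by −0.61 for Apoe. Several of these calls were lost in other settings. They were those of Apoa1, Apoa2 and Apoe for Sox17 minus Gata6 loss and of Apoa1 for the mutation by line. In the mutant they were those of Apoa1 and Apoa4 for Sox17 loss and of Apoe for Gata6 loss. Groups of 2 were too small for a test of single libraries that stand apart.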

How the results depend on the processing

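Of 97 calls of a single gene in a comparison, 67 were lost in no setting in which they were tested and none changed sign. The 97 include Apob in BMP4 72 h and in 72 against 24 h, where its level is a description and not a test. Both of these were lost with the covariate, so neither is among the 67. DESeq2 and the replicate block kept all 97, median-of-ratios scaling 96 and no filter 94. The covariate for reads outside genes kept 87. A fit to only the libraries compared kept 81, and 9 had too few reads there to be tested. The number of called genes moved to 1 at Gata6 loss 6 h and 24 h with no filter; with the covariate to 1 at Gata6 loss 24 h, 5 at 72 h, 2 at 48 against 24 h and 2 for Sox17 minus Gata6 loss; and with only the libraries compared to 0 at Gata6 loss 24 h, 1 at Sox17 loss 24 h, 3 for the Gata6-FKBP line against parental cells, 3 for the Gata6-FKBP against the Sox17-FKBP line, and 0 for the FoxA2 dependence of Gata6 loss. The cause was not tested.

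Without each library in turn the count ran from 0 to 1 at Gata6 loss 6 h, 0 to 2 at 24 h, 3 to 5 at 72 h and 3 to 4 for 48 against 24 h; from 4 to 7 at Sox17 loss 48 h; from 3 to 5 for Sox17 loss in the mutant and between the tagged lines; and from 0 to 1, 2 to 4 and 1 to 4 for the FoxA2 dependence of Gata6 loss, of Sox17 loss and for Sox17 minus Gata6 loss. A lone sample of a group is then assumed to vary like the others.

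Over all genes, the covariate called 2622 genes in place of 9185 in BMP4 72 h, 1524 in place of 10275 for 72 against 24 h, 3336 in place of 7912 for Gata6 loss 48 against 24 h, 1096 in place of 2027 at Gata6 loss 6 h, 455 in place of 255 at Sox17 loss 6 h, 121 in place of 35 for Gata6 loss and 698 in place of 403 for Sox17 loss in the mutants. Only the libraries compared gave 259 in place of 6371 in BMP4 24 h, 625 in place of 4451 at Sox17 loss 24 h, 1265 at Gata6 loss 6 h, 1287 at Sox17 loss 6 h, 6895 in place of 4513 at 48 h, 4972 in place of 2590 for 96 against 48 h, 4356 in place of 2108 for its FoxA2 dependence, and 0 and 865 in the mutants. No filter gave 396 at Sox17 loss 6 h and 86 for Gata6 loss in the mutant, DESeq2 393 and 119. Of the 3 genes named as most like each of 7 genes, 2 or 3 were again among the top 3 over the 40 libraries, and 0 to 2 by Spearman correlation over groups. Depth limits Apoa2, Apoa4, Apob and Apom, which had under 100 reads in most groups, and Apoa1 outside the Sox17-FKBP course and the BMP4 course.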
